A study of Mus musculus with 10 samples.

Results

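Cytochromes P450 are haem enzymes that oxidise fatty acids, sterols, retinoids, vitamin D and foreign chemicals. The genes described here are the 97 rows of the deposited table whose symbol follows the mouse P450 pattern (Cyp, a number, letters, a number), together with Por, Ahr and Ahrr. They make 100 genes of the 22740 in the table and were chosen by symbol, not by their values. RNA came from oesophageal tissue of C57BL/6 mice given 4-NQO, a chemical carcinogen used to raise squamous tumours of the upper digestive tract. Both groups received it. The labels place 5 samples in the knockout group (Grhl3 KO), with tissue described as oesophageal tumour. They place 5 in a wild-type group, with tissue described as oesophageal only. Genotype and tissue label cannot be told apart in this design. The series title speaks of a conditional knockout, and the labels give neither the cells in which Grhl3 was deleted nor the age or sex of the mice. The genes were compared across the 10 libraries to ask which P450 enzymes this tissue expresses and whether the groups differ in them.

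Microsomal P450 enzymes take their electrons from cytochrome P450 reductase, encoded by Por. Many are made mainly in the liver, whereas stratified epithelia such as skin and oesophagus express a smaller set with roles in barrier lipids, retinoic acid breakdown and the handling of chemicals. The aryl hydrocarbon receptor (Ahr) is a transcription factor that binds planar aromatic compounds and switches on the CYP1 enzymes, and its repressor (Ahrr) dampens that response.

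Counts totalled 15315418 to 32884323 per library. Levels are given as CPM, the usual depth-scaled count with TMM-scaled library sizes, and as CPM per kb of exon where genes are compared with each other. Stratified epithelium markers were abundant in every library, with a summed level of 53139 to 69622 CPM in Grhl3 KO against 45185 to 113872 CPM in wild type. Hepatocyte markers were scarce, and Serpina1a had no count. Their sum stayed at or below 0.376 CPM in every Grhl3 KO library. It reached 5.12 CPM in wild-type library 1555 alone, led by Apoa1 (2.96 CPM) and Apob (2.05 CPM). The remaining wild-type libraries had sums of 0 to 0.686 CPM, so the high value does not describe the group. Fitted levels of skeletal muscle markers were above wild type in the Grhl3 KO libraries for 8 of 8 genes, 0 of them past the adjusted threshold, with sums of 631 to 4438 CPM against 1012 to 2189 CPM. Y-linked genes summed to 162 to 203 CPM in the 5 Grhl3 KO libraries. In wild type they summed to 154 CPM in library 1028, 177 CPM in 1048, 72.3 CPM in 1561 and 0.0539 CPM or less in 1528 and 1555. The groups are thus unbalanced in Y-linked RNA. Grhl3 itself averaged 222 ± 66.8 CPM in the libraries labelled Grhl3 KO against 207 ± 112 CPM for the wild type (mean ± SD of 5 libraries, as in all such pairs here), so the gene-level counts do not show the deletion, and Grhl3 KO here means the libraries so labelled. The numbers of wild-type libraries 1528, 1555 and 1561 lie far from those of the other 7, with no label explaining the numbering.

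Most of the family did not reach testable levels in this tissue. Of the 100 members, 33 had no count in any library, 38 had some counts but did not pass the low-count filter, and 29 passed it and were tested. A gene at 0 in all libraries can lie below 0.0135 CPM, the level of 3 counts over the 10 libraries, a limit that covers counting error only. Passing depends on level, so the tested members are the more abundant ones and not a sample of the family. All P450 genes together took 0.0373% to 0.0670% of the counts of a library, and the 5 with the highest CPM (Cyp4f39, Cyp2s1, Cyp3a13, Cyp7b1 and Cyp2j6) supplied 56.4% to 68.0% of the P450 sum.

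**Figure D1:**
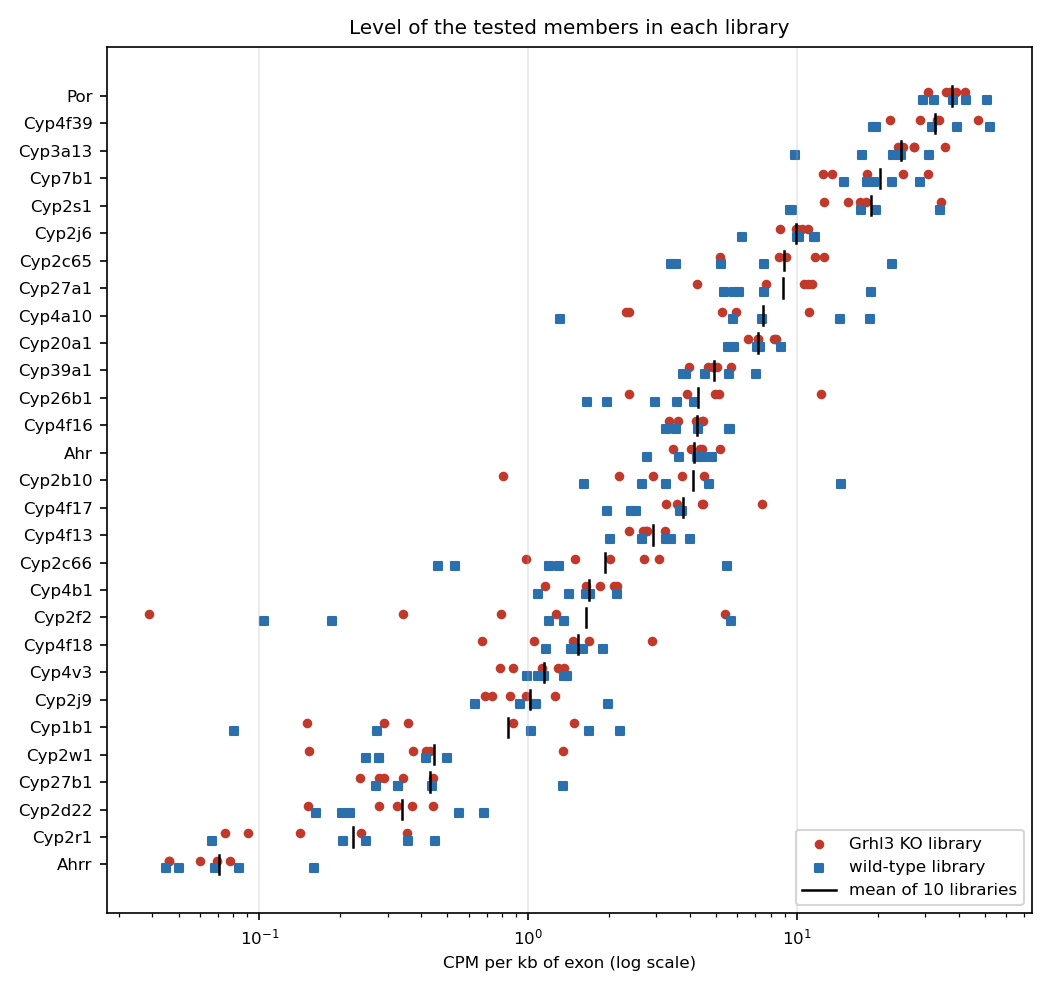
Level of each of the 29 tested members in every library, in CPM per kb of exon on a log axis, with red circles for the 5 Grhl3 KO libraries, blue squares for the 5 wild-type libraries and a black bar for the mean of 10. Por and Cyp4f39 lie at the top, Ahrr at the bottom, and the libraries of both groups overlap for every gene.

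By level per length, Por headed the list at 37.9 CPM per kb (29.5 to 51.1 over the 10 libraries). Cyp4f39, which makes the omega-hydroxy fatty acids of the skin's acylceramides, followed at 32.8 (19.2 to 52.3), and Cyp3a13, a drug-oxidising enzyme of the CYP3A family, at 24.4 (9.81 to 35.7). Cyp7b1, an oxysterol hydroxylase, stood at 20.4 (12.5 to 30.7), and Cyp2s1, a P450 of epithelia outside the liver, at 18.8 (9.42 to 34.4). Neighbours in this order overlapped in their ranges and cannot be ranked apart. Next came Cyp2j6, an arachidonic acid epoxygenase, at 9.96, Cyp2c65 at 8.94, the mitochondrial sterol hydroxylase Cyp27a1 at 8.86, the fatty acid hydroxylase Cyp4a10 at 7.47 and Cyp20a1, an enzyme with no settled substrate, at 7.19 CPM per kb. At the other end of the tested members, Ahrr lay at 0.0706 CPM per kb. With the longest annotated transcript as the length instead of all exons, Cyp2s1 rose to 29.4, Por to 57.8 and Ahrr to 0.131 CPM per kb.

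Most P450 genes sit in tandem clusters that arose by duplication, and the expressed members were unevenly spread over them. Members on a chromosome less than 500 kb apart formed 8 clusters of 3 or more genes, with 70 members. Of these, 14 (20%) were tested, against 15 of the 30 members outside them (50.0%). The 30 include Por, Ahr and Ahrr, which are not P450 genes and were all tested. Clusters were formed by distance alone, and the smallest holds Cyp1a1, Cyp1a2 and Cyp11a1. In the Cyp2c cluster of chromosome 19 (39007019 to 40187333, GRCm38), 10 of 14 genes had no count and 2, Cyp2c65 and its neighbour Cyp2c66, were tested. Of those 10 genes, 7 have over 20% of their transcript near-identical to another gene, Cyp2c40, Cyp2c67, Cyp2c68 and Cyp2c69 among them, so their 0 counts may include reads that were not assigned. In the cluster of chromosome 7 (25802475 to 27158668), 3 of 13 genes were tested, and Cyp2s1 at its edge supplied 88.2% of the cluster's CPM. The Cyp3a cluster of chromosome 5 (145345279 to 146113287) had 0 of 8 genes tested, while Cyp3a13, which lies apart from it at 137892932 to 137921619 on the same chromosome, was among the most abundant members. The Cyp4f cluster of chromosome 17 (32452723 to 32947402) had 4 of 7 genes tested, led by Cyp4f39.

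**Figure D2:**
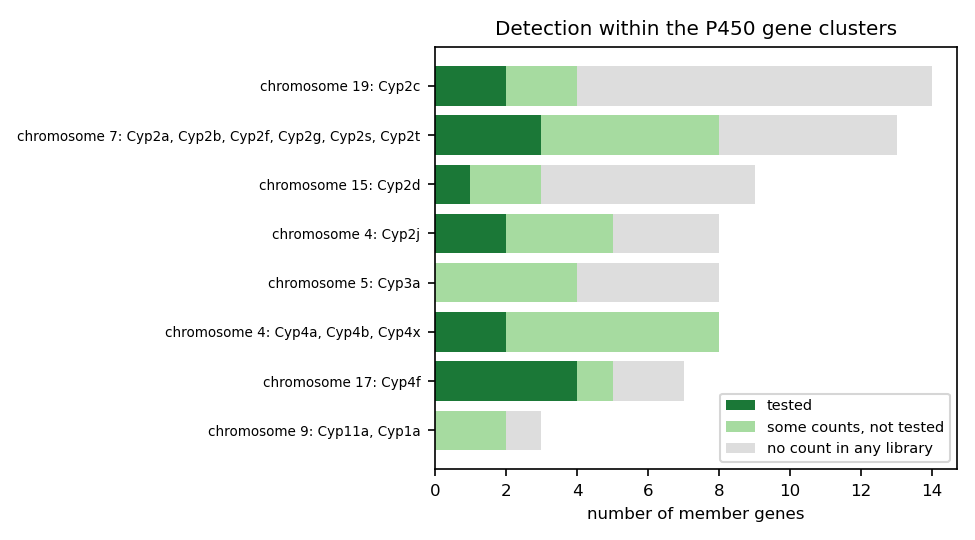
Number of member genes in each of the 8 P450 clusters, split into tested genes (dark green), genes with some counts that were not tested (light green) and genes with no count in any library (grey). The Cyp4f cluster of chromosome 17 has 4 of 7 genes tested and the Cyp3a cluster of chromosome 5 has 0 of 8.

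Counts of some members cannot be assigned with certainty, because the treatment of reads that match several genes was not given in the sources used here. Of the Cyp2c65 transcript 99.8% is shared, at 95% identity or more, with other genes such as Cyp2c66, and of the Cyp2c66 transcript 99.3% is near-identical to Cyp2c65. The share was 75.5% for Cyp4a10, whose copies are Cyp4a31 and Cyp4a32, and 71.6% for Cyp4f16, whose copy is Cyp4f37. The other 25 tested members had at most 17.5% of such sequence. More than 20% of the transcript was near-identical to another gene in 4 of 29 tested members, in 26 of 71 untested members and in 16 of the 33 members without a count. A count of 0 for these 16, such as Cyp2a4 and Cyp3a41a, can also arise where reads that match several genes are not counted, and their expression is therefore uncertain.

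No member differed between the groups by the test over all genes. Of the 29 tested members, 0 passed the edgeR quasi-likelihood test at a Benjamini-Hochberg threshold of 0.05, beside 0.0801% of all 13731 genes tested (0.0291% higher and 0.051% lower in Grhl3 KO). DESeq2 and limma voom also called 0. At an unadjusted p under 0.05, 2 members were called by edgeR, both higher in Grhl3 KO. They make 6.9% of the members, beside 7.16% of all genes (3.44% higher and 3.72% lower); DESeq2 gave 2 and limma voom 1. The edgeR count was 0 without Grhl3 KO library 1043 and 5 without wild-type library 1028 or without wild-type library 1555. The 2 groups failed to overlap for 0 of the 29 tested members, beside 1.35% of all tested genes (0.787% higher and 0.568% lower). Among the untested members, Cyp2b19 did not overlap, at 0 to 0.126 CPM in Grhl3 KO against 0.141 to 0.580 CPM in wild type. It had 33 counts in all, and untested genes do not enter that share. Fitted levels were higher in Grhl3 KO for 14 of 29 members (48.3%) beside 49.7% of all genes, and the median log2 fold change (Grhl3 KO minus wild type throughout) was −0.03 beside −0.0011. With wild-type libraries 1528, 1555 and 1561 left out, or 1528 and 1555 alone, 0 members were called.

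**Figure D3:**
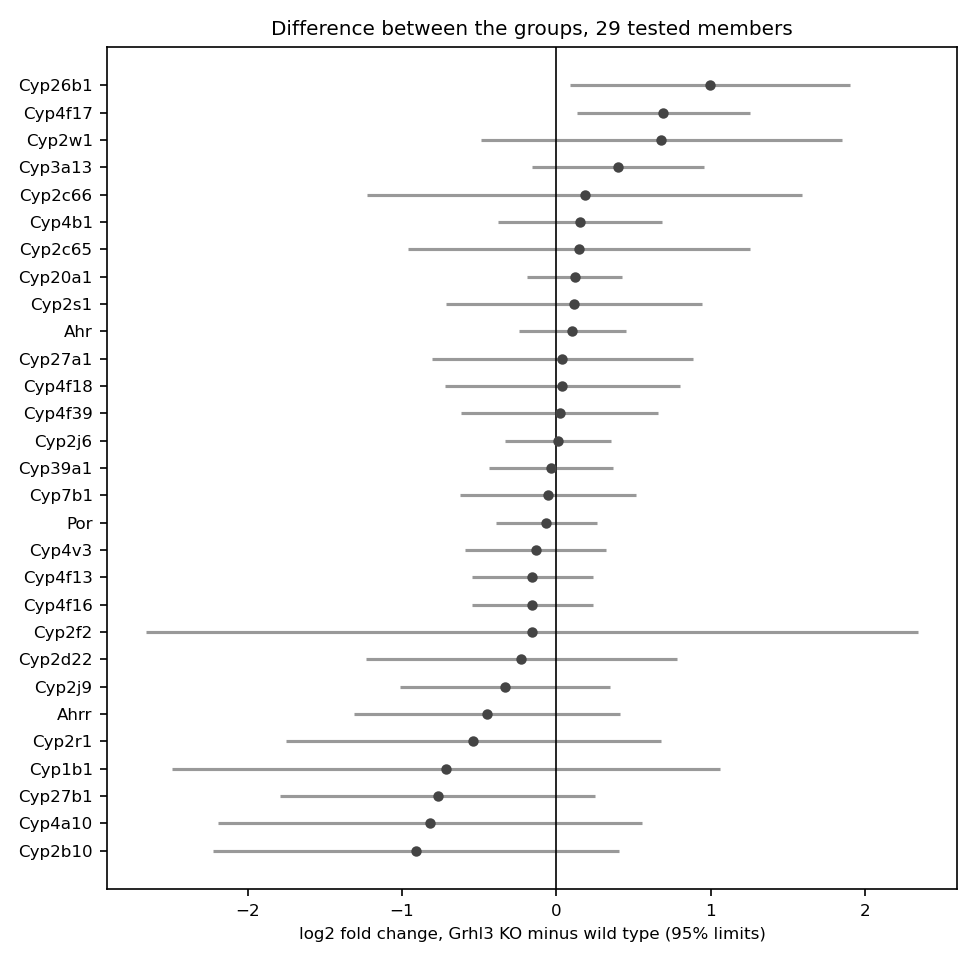
Log2 fold change of the 29 tested members, Grhl3 KO minus wild type, as points with 95% limits from edgeR's quasi-likelihood fit. The limits of Cyp26b1 and Cyp4f17 lie above 0 before adjustment, and those of Cyp2f2 are the widest, from −2.66 to 2.35.

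Of the receptor pair, Ahr was steadily expressed and Ahrr was close to the filter. Ahr stood at 27.3, 31.9, 26.8, 21.2 and 24.8 CPM in Grhl3 KO libraries 1026, 1027, 1035, 1036 and 1043, and at 22.4, 27.6, 26.3, 29.8 and 17.0 CPM in wild-type libraries 1028, 1048, 1528, 1555 and 1561; per-library values below follow this order. The groups overlapped, with a log2 fold change of 0.10 (SE 0.16, 95% limits −0.24 to 0.45, edgeR adjusted p = 0.947). Ahrr stood at 0.566, 0.736, 0.433, 0.433 and 0.657 CPM in Grhl3 KO and at 1.51, 0.790, 0.475, 0.647 and 0.424 CPM in wild type. Wild-type library 1028 was the highest for Ahrr and the others overlapped (log2 fold change −0.45, SE 0.39, edgeR adjusted p = 0.880; −0.05 without library 1028).

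The CYP1 enzymes, which activate polycyclic aromatic hydrocarbons and are the classical targets of the receptor, were nearly absent except for Cyp1b1. Cyp1a2 had no count in any library. Cyp1a1 had 5 counts in Grhl3 KO library 1035, 1 in wild-type library 1028 and none in the other 8. Cyp1b1, which is common in stromal cells and also hydroxylates oestrogens, was at 0.881, 1.70, 8.67, 5.12 and 2.09 CPM in Grhl3 KO and at 1.60, 6.00, 9.81, 12.9 and 0.471 CPM in wild type. Its libraries spanned 27.4-fold with high and low ones in both groups, and the log2 fold change was −0.72 (SE 0.81, 95% limits −2.49 to 1.06, edgeR adjusted p = 0.918). Without wild-type libraries 1528 and 1555, both high, it was 0.48. With 1 library left out it ran from −1.31 (Grhl3 KO 1035) to −0.27 (wild type 1555). Y-linked sums were 0.0539 CPM or less in libraries 1528 and 1555. The part of this difference in the Cyp1b1 level was not tested. In bulk tissue, fewer cells of a type and less RNA per cell cannot be told apart. The fibroblast list summed to 223 to 694 CPM in Grhl3 KO against 293 to 504 CPM in wild type. The highest fibroblast sum and the highest Cyp1b1 level of the Grhl3 KO group were both in library 1035, and in wild type the highest fibroblast sum was in library 1048 and the highest Cyp1b1 level in library 1555; the part of fibroblast content in the Cyp1b1 spread was not tested.

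The promoters of these 3 genes are shown because the receptor acts on them through a short core motif, GCGTG, read on either strand, and because the genes differ so much in level here. Each is the RefSeq window of GRCm38.p6 upstream of the start, in the direction of the gene, with the core in capitals.
Cyp1a1, chr9:57697363-57697612, plus strand: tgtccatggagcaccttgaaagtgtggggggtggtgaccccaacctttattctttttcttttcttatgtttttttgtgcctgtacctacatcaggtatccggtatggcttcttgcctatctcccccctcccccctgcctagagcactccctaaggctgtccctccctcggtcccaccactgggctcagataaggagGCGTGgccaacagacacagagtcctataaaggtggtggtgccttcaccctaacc
Cyp1b1, chr17:79715062-79715311, minus strand: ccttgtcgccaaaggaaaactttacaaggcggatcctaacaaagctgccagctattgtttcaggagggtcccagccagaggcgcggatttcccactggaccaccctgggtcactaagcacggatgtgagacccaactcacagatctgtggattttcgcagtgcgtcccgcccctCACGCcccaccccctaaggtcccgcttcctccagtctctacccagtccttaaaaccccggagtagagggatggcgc
Ahrr, chr13:74292332-74292581, minus strand: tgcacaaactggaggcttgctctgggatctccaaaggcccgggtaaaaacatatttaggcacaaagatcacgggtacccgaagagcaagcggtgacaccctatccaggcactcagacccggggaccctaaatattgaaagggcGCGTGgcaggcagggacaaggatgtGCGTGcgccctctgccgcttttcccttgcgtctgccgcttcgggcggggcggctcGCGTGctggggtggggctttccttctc

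Cyp1a1 and Cyp1b1 each hold 1 core in these 250 bases, in Cyp1b1 on the opposite strand (CACGC as printed), and Ahrr holds 3. The Cyp1a1 window ends at the base before the RefSeq start and lies within the longer GENCODE gene model, outside its annotated exons. The same 5 letters occur in 28.2% of all 32851 windows of this length, so a match describes the letters and not a bound site. Windows were found for 75 of the 100 members.

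Other genes of the receptor pathway were expressed. The list of 12 partners and reported targets had 10 members with a higher and 2 with a lower fitted level in Grhl3 KO. Its median log2 fold change was 0.21 with 0 past the adjusted threshold, and 49.7% of all tested genes were fitted higher. Among the 10, Ugt1a7c, Ugt1a6a and Ugt1a6b overlap in position on chromosome 1, so their counts may not be independent. Nqo1, a quinone reductase that is also induced through NRF2, averaged 308 ± 142 CPM in Grhl3 KO against 156 ± 51.7 CPM in wild type (edgeR adjusted p = 0.454). Grhl3 KO library 1043 was the highest for Nqo1 at 547 CPM. The glucuronosyltransferase gene Ugt1a7c was at 26.4 ± 4.02 against 20.9 ± 4.64 CPM (edgeR adjusted p = 0.728), and the aldehyde dehydrogenase gene Aldh3a1 at 456 ± 274 against 260 ± 127 CPM (edgeR adjusted p = 0.753). Across the 10 libraries, Cyp1b1 and Ahr had a Pearson r of 0.48 in log2 CPM (permutation p = 0.160, adjusted over 2 relations 0.319; Spearman rho 0.39, permutation p = 0.263, adjusted 0.527). Without wild-type libraries 1555 and 1561, the 2 farthest from the Cyp1b1 median, r was −0.10, so the relation rests on those libraries. Within the 7 libraries numbered 1026 to 1048 it was −0.15 (exact permutation p = 0.736). Cyp1b1 and Ahrr had an r of −0.15 (permutation p = 0.708; rho 0.0061), or −0.43 within the 7 libraries (exact permutation p = 0.359) and −0.50 without the same 2. Another 4 relations planned with Cyp1a1 were not computed because it did not pass the filter.

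Por, the electron donor of the microsomal enzymes, was even across the libraries. It stood at 124, 149, 170, 145 and 157 CPM in Grhl3 KO and at 153, 119, 172, 205 and 130 CPM in wild type, overlapping throughout (log2 fold change −0.07, SE 0.15, 95% limits −0.39 to 0.26, edgeR adjusted p = 0.967). Of the 8 other electron carriers tested, 0 passed. Fdx1, encoding the ferredoxin of mitochondrial P450 enzymes, averaged 25.6 ± 0.783 CPM in Grhl3 KO against 31.6 ± 2.77 CPM in wild type. It missed the threshold (log2 fold change −0.30, SE 0.083, edgeR adjusted p = 0.411). Every Grhl3 KO library was below every wild-type library for Fdx1, as for 0.568% of all tested genes. Fdx1 was named for the smallest p of its list, so this separation adds no support. Its reductase gene Fdxr had 0.26 and the cytochrome b5 reductase gene Cyb5r3 −0.15 (edgeR adjusted p = 0.760 and 0.833).

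Haem pathway genes also had 0 of 12 past the threshold, with 7 fitted higher and 5 lower. Alas1, the rate-limiting enzyme of haem synthesis, averaged 264 ± 97.8 CPM in Grhl3 KO against 160 ± 37.8 CPM in wild type (log2 fold change 0.73, edgeR adjusted p = 0.478), Blvrb, a biliverdin reductase gene, had 0.60 and Hmox1, encoding a haem oxygenase, −0.47 (edgeR adjusted p = 0.694 and 0.848).

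Among the retinoic acid hydroxylases, Cyp26b1 was the one clearly expressed. It stood at 12.7, 27.4, 26.6, 20.8 and 65.9 CPM in Grhl3 KO and at 8.87, 10.5, 15.9, 19.2 and 22.3 CPM in wild type. Library 1043 stood far above the rest of its group, and the groups overlapped. The group means were 30.7 ± 20.6 and 15.4 ± 5.67 CPM (SD, n = 5 each), a log2 fold change of 0.996 (SE 0.41, 95% limits 0.09 to 1.90). Its unadjusted p was 0.0341 and its edgeR adjusted p 0.667. Without Grhl3 KO library 1043 the log2 fold change was 0.51, and within the libraries numbered 1026 to 1048 it was 1.66. Library 1043 also had the highest summed skeletal muscle markers, 4438 CPM. Grhl3 KO library 1026, next at 2534 CPM, had the lowest Cyp26b1 level of its group. The part of muscle content in the Cyp26b1 levels was not tested beyond a fit with those markers as a covariate. In that fit the log2 fold change was 0.76 (edgeR adjusted p = 0.759).

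Its relatives were at the edge of detection. Cyp26a1 had 2 to 4 counts in 4 libraries and none in the other 6, and Cyp26c1 had 1 count in all. The upstream window of Cyp26a1 is shown because it carries a direct repeat bound by retinoic acid receptors (in capitals, on the opposite strand), while the gene itself is nearly silent here.
Cyp26a1, chr19:37697558-37697797, plus strand: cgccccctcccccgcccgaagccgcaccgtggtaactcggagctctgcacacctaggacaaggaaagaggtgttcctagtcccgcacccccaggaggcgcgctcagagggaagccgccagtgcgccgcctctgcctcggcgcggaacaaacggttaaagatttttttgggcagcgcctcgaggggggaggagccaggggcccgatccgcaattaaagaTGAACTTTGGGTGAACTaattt

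That repeat, AGTTCA followed after any 5 bases by another AGTTCA and searched on both strands, was found in 7 of 32851 windows in all. Only this exact spelling was searched, so the count does not give how often repeats of other spellings occur. The printed window is the RefSeq one of GRCm38.p6 cut to the 240 bases before the first annotated exon. The retinoic acid receptor genes Rarg and Rara were at 134 ± 13.3 and 14.4 ± 2.04 CPM in Grhl3 KO and 142 ± 15.4 and 15.2 ± 2.23 CPM in wild type; both were picked from the nuclear receptor list for this comparison after their values were seen. That list had 11 of 14 genes tested, 5 fitted higher and 6 lower, and 0 past the threshold. By smallest p its leading genes were Pparg at 0.76, the vitamin D receptor gene Vdr at −0.13 and Ppara at −0.46 on the log2 scale (edgeR adjusted p = 0.784, 0.865 and 0.891).

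Vitamin D enzymes were scarce although Vdr was expressed at 46.0 ± 3.03 CPM in Grhl3 KO against 50.5 ± 7.59 CPM in wild type. Cyp27b1, which makes the active hormone, was at 0.881, 0.608, 0.751, 1.14 and 0.716 CPM in Grhl3 KO and at 1.13, 0.842, 3.48, 0.701 and 0.847 CPM in wild type. Wild-type library 1528 stood apart; the log2 fold change was −0.77 with it and −0.11 without it (edgeR adjusted p = 0.792 with it). Cyp2r1, the 25-hydroxylase, lay at 0.381 ± 0.247 against 0.560 ± 0.309 CPM. Cyp24a1, which breaks the hormone down and is its classical target gene, had 1 count in each of 3 libraries.

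Among sterol enzymes, Cyp7b1, Cyp27a1 and Cyp39a1 were tested and 0 passed. Cyp7b1 stood at 27.1, 29.3, 53.8, 66.6 and 39.6 CPM in Grhl3 KO and at 32.5, 62.0, 49.1, 41.8 and 39.4 CPM in wild type, with a log2 fold change of −0.05 (SE 0.26, edgeR adjusted p = 0.986). Cyp27a1 stood at 16.7, 24.8, 23.1, 9.26 and 23.8 CPM and at 41.0, 13.2, 12.7, 16.4 and 11.7 CPM. In Cyp27a1 wild-type library 1028 was above all others; the log2 fold change was 0.04 with it and 0.53 without it (edgeR adjusted p = 0.992 and 0.589). Cyp39a1, an oxysterol hydroxylase, was at 14.8 ± 1.89 against 15.2 ± 4.21 CPM. Cyp7a1, the rate-limiting enzyme of bile acid synthesis in liver, had no count.

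The steroid hormone enzymes were not expressed at testable levels, with 0 of 6 tested. Cyp11b1 had no count, Cyp21a1 had 3 to 44 counts per library, with the 44 in wild-type library 1528, and Cyp17a1 had 1 to 20.

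The CYP4 enzymes, which hydroxylate fatty acids and eicosanoids at their omega end, were the best represented of the larger families, with 8 of 17 tested. Cyp4f39 stood at 63.2, 95.3, 81.9, 96.6 and 135 CPM in Grhl3 KO and at 149, 56.4, 91.0, 113 and 54.8 CPM in wild type, with both groups covering the same range (log2 fold change 0.02, SE 0.29, 95% limits −0.62 to 0.66, edgeR adjusted p = 0.992). Its neighbour Cyp4f17 had the smallest p of all members. It stood at 10.4, 11.5, 14.3, 14.2 and 23.8 CPM in Grhl3 KO and at 12.0, 7.74, 11.8, 8.03 and 6.31 CPM in wild type. In Cyp4f17 the upper 3 Grhl3 KO libraries lay above every wild-type library and the lower 2 overlapped them. For Cyp4f17 the log2 fold change came to 0.69 (SE 0.26, 95% limits 0.13 to 1.26), at an unadjusted p of 0.0198 and an edgeR adjusted p of 0.575. Without Grhl3 KO library 1043 it was 0.46. The other 2 tested genes of this cluster did not share that direction, with Cyp4f16 at −0.16 and Cyp4f13 at −0.15 (edgeR adjusted p = 0.919 and 0.920).

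Cyp4a10, a fatty acid hydroxylase induced through PPARalpha in liver, stood at 11.1, 23.4, 4.88, 12.5 and 5.02 CPM in Grhl3 KO and at 2.78, 15.6, 39.6, 30.6 and 12.2 CPM in wild type. The highest and the lowest library for Cyp4a10 were both wild type (log2 fold change −0.82, SE 0.62, edgeR adjusted p = 0.847). The highest values were in wild-type libraries 1528 and 1555, whose Y-linked sums were 0.0539 CPM or less. The part of this difference in the Cyp4a10 level was not tested. Within the libraries numbered 1026 to 1048 the Cyp4a10 value was 0.31, and with 1 library left out it ran from −1.27 (Grhl3 KO 1027) to −0.42 (wild type 1528). Cyp4f18, which inactivates leukotriene B4 in neutrophils, was at 1.25 to 5.36 CPM in Grhl3 KO against 2.16 to 3.53 CPM in wild type. Its highest library, Grhl3 KO 1036, also had the highest summed neutrophil markers, 50.8 CPM against 11.3 to 29.4 CPM in the other 9. That sum came mostly from Csf3r, at 34.1 CPM. Cxcr2 was at 16.7 CPM there and higher in wild-type library 1555, at 18.2 CPM, and Ly6g had no count in library 1036. The part of neutrophils in the Cyp4f18 level was not tested.

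**Figure D4:**
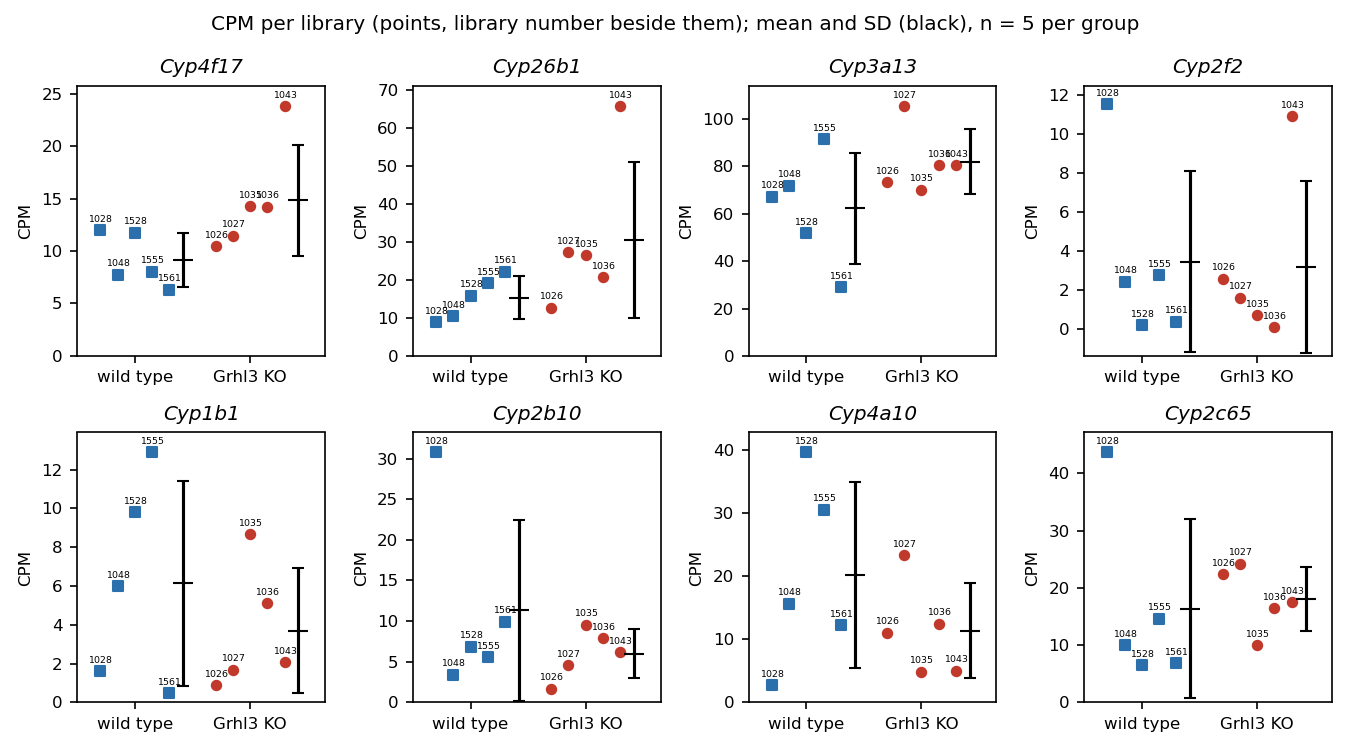
CPM of 8 members in each library, with blue squares for wild type, red circles for Grhl3 KO, library numbers beside the points and black bars for the mean and SD of 5 libraries per group. Cyp26b1 and Cyp4f17 are highest in Grhl3 KO library 1043, while wild-type library 1028 leads Cyp2f2, Cyp2b10 and Cyp2c65.

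Cyp3a13, the 1 tested gene of 9 in the CYP3A family, stood at 73.5, 105, 70.2, 80.5 and 80.5 CPM in Grhl3 KO and at 67.2, 71.9, 51.7, 91.5 and 28.99 CPM in wild type. Wild-type library 1561 was the lowest and the groups overlapped (log2 fold change 0.40, SE 0.25, 95% limits −0.16 to 0.95, edgeR adjusted p = 0.799). Without library 1561 the Cyp3a13 value was 0.22 (edgeR adjusted p = 0.818), and with the stratified epithelium markers as a covariate it was 0.85 (edgeR adjusted p = 0.412).

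The CYP2 enzymes, which oxidise many chemicals and arachidonic acid, formed the largest family and the one with most genes at 0. With Cyp2r1 counted among the vitamin D enzymes instead, 24 of 49 had no count, 16 had some and 9 were tested. Cyp2s1 stood at 76.4, 89.6, 62.2, 85.0 and 170 CPM in Grhl3 KO and at 168, 47.5, 97.3, 85.5 and 46.5 CPM in wild type, with 1 high library in each group (log2 fold change 0.12, SE 0.38, edgeR adjusted p = 0.979). Cyp2j6 stood at 31.1 to 39.5 CPM in Grhl3 KO and at 36.0 to 41.97 CPM in 4 wild-type libraries, with wild-type library 1561 apart at 22.4 CPM (log2 fold change 0.01, SE 0.16, 95% limits −0.33 to 0.35). Cyp2w1, known from fetal gut and colorectal tumours, was at 0.231 to 0.755 CPM in 9 libraries and at 2.05 CPM in Grhl3 KO library 1027. The log2 fold change of Cyp2w1 was 0.68 with that library and −0.04 without it (edgeR adjusted p = 0.853 with it).

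Several CYP2 genes varied more between mice of a group than between the groups. Cyp2f2, the enzyme of airway club cells that activates naphthalene, stood at 2.58, 1.60, 0.694, 0.0788 and 10.9 CPM in Grhl3 KO and at 11.6, 2.42, 0.211, 2.75 and 0.376 CPM in wild type. It was high in 1 library of each group and spanned 147-fold over all 10. Its within-group SD of log2 CPM, 2.18, was above that of 99.9% of all tested genes. For Cyp2f2 the log2 fold change was −0.16 (SE 1.14, edgeR adjusted p = 0.989), −1.52 without Grhl3 KO library 1043 and 1.11 without wild-type library 1028. Airway and lung markers, Scgb1a1, Scgb3a2, Foxj1, Sftpc and Bpifa1, summed to at most 0.478 CPM in Grhl3 KO, in library 1043. Their highest sum in wild type was 1.04 CPM, in library 1028. Cyp2f2 was also highest in these libraries of each group. Wild-type library 1048, however, had an airway sum of 0.474 CPM, close to that of library 1043, with Cyp2f2 at 2.42 CPM. The sums rest on few reads, as 3 counts make 0.179 CPM in library 1043 and 0.141 CPM in library 1028. The part of airway cells in the Cyp2f2 level was not tested. Cyp2b10, a target of the nuclear receptor CAR in liver, stood at 1.70, 4.61, 9.57, 7.92 and 6.15 CPM in Grhl3 KO and at 30.7, 3.42, 6.86, 5.60 and 9.93 CPM in wild type. Without wild-type library 1028, the Cyp2b10 log2 fold change went from −0.91 (SE 0.60, edgeR adjusted p = 0.812) to −0.11. The gene of that receptor, Nr1i3, had 3 counts in all, each in wild-type library 1555 (0.162 CPM), and none in any other library of either group.

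The near-identical neighbours Cyp2c65 and Cyp2c66, known from the gut, had the same highest library and the same lowest library. Cyp2c65 stood at 22.5, 24.2, 9.97, 16.5 and 17.5 CPM in Grhl3 KO and at 43.7, 10.1, 6.54, 14.6 and 6.87 CPM in wild type, with library 1028 the highest and library 1528 the lowest. Cyp2c66 ranged from 0.896 to 10.7 CPM. The log2 fold changes were 0.15 and 0.18 (edgeR adjusted p = 0.981 for each); without library 1028 they were 0.93 and 1.23 (edgeR adjusted p = 0.407 and 0.438). Intestinal markers summed to 2.17 to 6.20 CPM over the libraries.

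This spread was general among the members. Their median within-group SD of log2 CPM was 0.53 over the 29 tested, beside 0.26 over all tested genes, and their median level was 12.95 beside 25.5 CPM. After Cyp2f2, the widest were Cyp1b1 (1.62), Cyp4a10 (1.24), Cyp2c66 (1.07) and Cyp2b10 (1.07), and the narrowest was Cyp20a1 (0.21). Wild-type library 1028 was the highest library for 8 of the 29 members and wild-type library 1561 the lowest for 10. The same counts were not made over all tested genes, so these do not set the members apart. Library 1028 also had the highest stratified epithelium sum, 113872 CPM, and library 1561 the lowest, 45185 CPM. Krt13 (43057 against 4958 CPM) and Krt4 (20906 against 2099 CPM) led that gap, and Krt14, Krt6a and Dsg3 shared its direction. The other genes of the list were lower in library 1028 than in 1561: Krt5 (10226 against 12437 CPM), Trp63 (463 against 606 CPM) and Ivl (1.93 against 29.4 CPM). Library 1028 was also the highest of the 10 for lymphocyte (16.6 CPM), endothelial (123 CPM), thyroid (4.10 CPM), Schwann cell (10.2 CPM) and airway (1.04 CPM) marker sums. The part of these cell types in the levels of the members was not tested gene by gene.

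Enzymes that act after P450 oxidation gave 0 of 14 genes past the threshold, with 10 fitted higher and 4 lower, beside 49.7% of all genes fitted higher. Gsto1, encoding an omega-class glutathione transferase, averaged 5683 ± 1385 CPM in Grhl3 KO against 3150 ± 486 CPM in wild type (log2 fold change 0.85, SE 0.18, edgeR adjusted p = 0.206). Every Grhl3 KO library was above every wild-type library for Gsto1, as for 0.787% of all tested genes. Gsto1 was named for the smallest p of its list, so this separation adds no support. Mgst1 and Gstp1, other glutathione transferase genes, had 0.34 and 0.40 (edgeR adjusted p = 0.651 and 0.724). Of 3 P450 genes whose symbols fall outside the pattern, Cyp51, encoding the sterol demethylase of cholesterol synthesis, averaged 188 ± 35.3 CPM in Grhl3 KO against 250 ± 74.0 CPM in wild type (log2 fold change −0.41, edgeR adjusted p = 0.757), and the prostacyclin and thromboxane synthase genes Ptgis and Tbxas1 had 0.07 and 0.04 (edgeR adjusted p = 0.989 and 0.990).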

How the data were processed

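RNA-seq of 10 libraries was deposited as raw counts of protein-coding genes, in whole numbers. Per the submitters' processing notes, the authors counted reads with featureCounts (version not given there) on GRCm38. An aligner was not given in the sources used here. Columns were joined to samples by sample number. The table has 0 other per-sample columns. Gene positions and lengths come from GENCODE M21 (GRCm38), which holds all 100 members. Genes were kept with filterByExpr (minimum count 10, minimum total 15), scaled by TMM and tested with edgeR 4.0.16 in R 4.3.3 by its robust quasi-likelihood F-test, with Benjamini-Hochberg adjustment over all 13731 tested genes and a threshold of 0.05. SE and 95% limits follow from the F statistic. Log2 CPM carries a prior count of 2. Similarity was measured with blastn 2.17.0 on stretches of at least 75 bases and 95% identity. Relations used permutation of libraries. Tests were tried on simulated data. Alternatives were other scalings, DESeq2 1.42.0, limma 3.58.1 (voom), other filters, omitted libraries and covariates.

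The members and lists were chosen with earlier results of these data known. Named are Por, Ahr, Ahrr, the CYP1 and CYP26 genes, Cyp24a1, the 10 members of highest level per length, the 8 of smallest p, the 5 of widest spread and up to 3 genes of smallest p in each other list; members named beside these illustrate their family and were chosen after their values were seen. Each library carries its own sample number and was taken as 1 mouse.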

Additional observations from a re-analysis of the deposited data

Results flagged for a closer look

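For the 20 named members that were tested, the 5 libraries of each group were searched for a library far from the other 4. Of the 40 groups of 5 searched, 3 held one, and chance alone gives about 1 in 20. Cyp2j6 stood at 22.4 CPM in wild-type library 1561, whereas its group otherwise ran from 36.0 to 41.97 CPM. Cyp27a1 stood at 41.0 CPM in wild-type library 1028, against 11.7 to 16.4 CPM in the others. Cyp27b1 stood at 3.48 CPM in wild-type library 1528, against 0.701 to 1.13 CPM.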

How the results depend on the processing

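In all 23 alternatives, 0 P450 members were called. The number of all genes called moved from 11 to 118 with DESeq2, 7 without a filter on low counts, and 1 each with limma voom, within the libraries numbered 1026 to 1048, without wild-type libraries 1528 and 1555, with the number series as a batch and with the stratified epithelium covariate. It ran from 1 to 16 with 1 library left out. Of the 20 named members tested, 6 kept their direction in every alternative that tested them (Cyp20a1, Cyp26b1, Cyp27b1, Cyp2b10, Cyp3a13 and Cyp4f17) and 14 turned in at least 1, none past the threshold. The turned log2 fold changes follow. Within the libraries numbered 1026 to 1048 they were 0.13 for Por, −0.12 for Cyp4f39, −0.16 for Cyp2s1, −0.11 for Cyp2j6, −0.57 for Cyp2c65, −0.47 for Cyp27a1, 0.31 for Cyp4a10 and −0.71 for Cyp2c66, with the same 8 rounded values when the number series was a batch term. Without wild-type libraries 1528 and 1555 they were 0.15 for Por, 0.48 for Cyp1b1, −0.16 for Cyp2c65, −0.17 for Cyp27a1, 0.16 for Cyp4a10 and −0.24 for Cyp2c66. With the epithelium covariate they were 0.10 for Por, 0.0077 for Ahrr, 0.26 for Cyp1b1 and 1.21 for Cyp2f2. With the muscle covariate they were −0.032 for Cyp4f39, 0.029 for Cyp7b1, −0.013 for Cyp2s1, −0.015 for Cyp2j6 and −0.079 for Cyp27a1, and with upper quartile factors −0.0037 for Cyp2j6. With 1 library left out they ran from −0.15 to 0.044 for Por, −0.0040 to 0.17 for Ahr, −0.14 to 0.26 for Cyp4f39, −0.27 to 0.091 for Cyp7b1, −0.19 to 0.48 for Cyp2s1, −0.12 to 0.075 for Cyp2j6, −0.055 to 0.93 for Cyp2c65, −0.093 to 0.53 for Cyp27a1, −0.035 to 0.93 for Cyp2w1, −1.52 to 1.11 for Cyp2f2 and −0.062 to 1.23 for Cyp2c66. The cause was not tested. The Pearson r of Cyp1b1 with Ahr ran from 0.093, without wild-type library 1561, to 0.66 with 1 library left out, where the highest, without Grhl3 KO library 1027, had an unadjusted permutation p of 0.0482, and was −0.15 within the libraries numbered 1026 to 1048. That of Cyp1b1 with Ahrr ran from −0.44 to 0.050, the ends reached when library 1561 and library 1028, respectively, were omitted. No paired analysis was possible because the groups share no sample numbers. With 5 libraries a group and counts near the filter, differences of scarce members such as Ahrr, Cyp2r1 and Cyp27b1 are poorly resolved.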
